A study of Mus musculus with 24 samples.

Results

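The rows described here are antisense rows: for a gene model of the annotation, they hold the RNA-seq reads that lay over the gene but came from the strand opposite to it. They were chosen by their own level, as antisense rows with a summed count of at least 240 over 24 libraries of mouse back skin, which is 10 reads per library on average. The rule kept 7280 of 31872 antisense rows. A further 9229 antisense rows held no read. The sum of counts that chose the rows is a description and was not tested, and a row at the threshold carried little: Tmem70, Akap7 and Cyb561 entered with 240 reads each, and Adamts14, AK132720 and Mgat4b stayed out with 239.

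The study asked how restricting food to part of the day acts on the skin, its circadian clock and its response to ultraviolet B light. The libraries came from male wild type C57BL/6NCrl mice of 8 weeks, at about day 54, when the back hair is in its resting phase (telogen), and no library used here carries a label of irradiation. All mice lived under 12 h of light and 12 h of dark and had restricted feeding for 18 to 21 days, so no group had food at all hours. Zeitgeber time (ZT) counts hours from lights on. The 3 groups were ED, with food from ZT0 to ZT4, MD, with food from ZT5 to ZT9, and EN, with food from ZT12 to ZT16. Each group had 8 libraries, 1 at each of ZT0 to ZT28 in steps of 4 h, and each library was 1 pool of RNA from 2 to 4 mice. Within a group each sampling time had 1 pool, with ZT24 and ZT28 falling at the same hours as ZT0 and ZT4 on a second day, so the error of each value below is the scatter of pools around a fitted daily curve, or the spread of a group over its 8 times. Whole skin was used, so fewer cells of a type and less RNA per cell cannot be told apart.

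Exon rows held 13222667 to 26316851 counts per library and antisense rows 1599573 to 2912710. Levels are given as counts relative to the exon total of the library (CPM, where exon counts sum to 1000000), scaled by the exon rows and not by gene length. Markers of epidermis, dermal fibroblasts, fat, sebaceous gland and muscle were all measured. Summed markers of fast muscle had a median of 83170 CPM in MD, 43020 in ED and 50510 in EN. Markers of the hair shaft, of which 6 of 20 were measured, stood at 770 CPM in the ED pool of ZT24 and 2335 CPM in the EN pool of ZT0, against at most 77.6 CPM in any other library.

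Antisense transcription has several known sources. A neighbouring gene on the other strand may run into or across the gene, a promoter may fire in both directions, or a separate antisense RNA may be made, as at imprinted loci where a long antisense RNA silences the protein-coding gene on the same chromosome. The circadian clock is a feedback loop in which CLOCK and BMAL1 switch on genes through E-boxes, PER, CRY and CIART repress them, REV-ERB and ROR receptors act on Arntl, and DBP and TEF carry the rhythm to output genes through D-boxes. In skin this clock runs in keratinocytes, fibroblasts and fat, and its timing follows both light and meals. A read that lies where genes on opposite strands overlap is listed as antisense to one and as exonic to the other, so for such rows the antisense row of a gene and the transcript of its neighbour cannot be told apart.

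Several antisense rows with a daily rhythm or a food response lay across from, or beside, genes known for those inputs, and the promoters of these neighbours are shown because they are the sequence where such inputs are known to arrive. Each run gives 300 bases, from 250 before to 50 after the annotated start of the neighbour, 5′ to 3′ on its own strand, from RefSeq on GRCm38.p6. Capitals mark matches on either strand to CACGTG (the E-box), TTATGTAA (a D-box), TAGGTCA (the element of REV-ERB and ROR) or CACGAG (a half-site of the carbohydrate response element). Ciart lies at chr3:95882179-95882478 on the minus strand, Per3 at chr4:151044616-151044915 on the minus strand and Txnip at chr3:96557707-96558006 on the plus strand.
Ciart: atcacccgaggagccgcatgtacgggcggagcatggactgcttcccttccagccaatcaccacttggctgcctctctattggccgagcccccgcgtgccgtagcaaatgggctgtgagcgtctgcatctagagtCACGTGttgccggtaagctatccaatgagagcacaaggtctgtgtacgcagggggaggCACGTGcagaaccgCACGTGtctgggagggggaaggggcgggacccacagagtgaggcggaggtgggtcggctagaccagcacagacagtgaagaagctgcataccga
Per3: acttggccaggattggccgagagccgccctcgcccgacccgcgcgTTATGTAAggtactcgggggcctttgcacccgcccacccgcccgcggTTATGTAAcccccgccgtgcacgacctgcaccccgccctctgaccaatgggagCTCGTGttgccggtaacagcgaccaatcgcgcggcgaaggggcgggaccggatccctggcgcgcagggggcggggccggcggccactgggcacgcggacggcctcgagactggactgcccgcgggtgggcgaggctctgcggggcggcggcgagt
Txnip: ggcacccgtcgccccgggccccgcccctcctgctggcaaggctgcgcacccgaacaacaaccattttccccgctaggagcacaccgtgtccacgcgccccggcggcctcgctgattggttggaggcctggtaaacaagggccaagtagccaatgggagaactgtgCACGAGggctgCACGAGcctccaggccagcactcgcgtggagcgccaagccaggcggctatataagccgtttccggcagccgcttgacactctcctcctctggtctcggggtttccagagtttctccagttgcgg
The Ciart window held 3 E-boxes, at -116, -58 and -44 from the start. The Per3 window held 2 D-boxes, at -205 and -158, and 1 carbohydrate half-site at -105, read as CTCGTG. The Txnip window held 2 carbohydrate half-sites, at -85 and -74. Of 32851 promoters of the same length, 7.15% held CACGTG, 0.938% TTATGTAA, 2.61% TAGGTCA and 6.47% CACGAG. The windows of Dbp, Cry2 and Angptl8 held none of these letters. The window of Nr1d1 held 1 CACGAG, and of the windows at the starts of Arntl 1 held TAGGTCA. These matches describe the windows only.

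Antisense reads were concentrated in few rows. The 7280 rows held 98.31% of all antisense counts, the largest row alone 19.39%, the 3 largest 43.55% and the 100 largest 64.96%. The median row had a sum of 855 reads, which is 35.6 per library, and the quartiles were 430.75 and 2206.25. Sums from 240 to 480 were found for 2110 rows, from 480 to 1000 for 1877, from 1000 to 10000 for 2859, from 10000 to 100000 for 406, and above that for 28.

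The 3 largest rows belonged to BC116202, a clone with 2 gene models of 9437888 and 2578583 antisense reads, and GU332589, with 9183251. Neither name has a position in the annotation used here. BC116202 (the larger model) ranged in ED from 16600 to 39400 CPM with a median of 22963, in MD from 5110 to 32100 with a median of 13973, and in EN from 23400 to 33600 with a median of 27200. Its groups overlapped, and the lowest libraries were MD libraries. The exon row of Rpph1, the RNA of RNase P, had 12082145 reads. Between 19 to 24 h and 3 to 8 h after food was offered, BC116202 (the larger model) differed by 0.01 log2 units in ED, 1.91 in MD and -0.01 in EN. The Rpph1 exon row differed by -0.01, 1.85 and 0.03. Whether the BC116202 antisense rows hold Rpph1 RNA was not tested. Bc1, a short RNA made by RNA polymerase III, had 1186010 antisense reads and 1 exon read. Its gene is at chr7:144914470-144914637 on the plus strand.

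The next rows mostly lay across from a highly expressed gene. A630023A22Rik (527682 antisense reads, 251 exon reads) spans Anxa8, an annexin of the epidermis with 452448 exon reads. Gm15441 (418333 antisense reads, 605 exon reads) faces Txnip, the thioredoxin-interacting protein that restrains glucose uptake, with 406280 exon reads. Patl2 (340646 antisense reads, 34 exon reads) spans B2m, the light chain of class I antigen molecules, with 314410. Sorcs2 spans Psapl1 (307993 antisense against 299101 exon reads), and Syn3 spans Timp3, an inhibitor of metalloproteinases (232710 against 162631). A930016O22Rik faces Ckm, the muscle creatine kinase (284170 against 947690). Cenpp, with 209696 antisense and 642 exon reads, spans Ecm2, Aspn, Omd and Ogn, a cluster of small matrix proteoglycans. In each of A630023A22Rik, Gm15441, Patl2 and Sorcs2 the antisense sum was 103% to 117% of the exon sum of the gene on the other strand.

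Of the 7280 rows, 5765 had a sense exon row of at least 240 reads, and 272 had no exon read at all. In 2389 rows the antisense sum was above the exon sum. Among the 5765, the median ratio of antisense to exon counts was 0.0969, and the ratio was above 1 in 15.2%. Antisense reads were not limited to exons in rows such as A630023A22Rik, which shares 0 exonic bases with Anxa8. The ratio can therefore set reads over a gene body against reads over exons. The highest ratios among them were those of BC116202 (the smaller model, 2165), A630023A22Rik (2102), Gm15441 (691) and A930016O22Rik (643). At the other end, the antisense sum was 0.0112% of the exon sum for Col1a2, a chain of type I collagen, 0.0113% for Rpph1, the RNA of RNase P, 0.0214% for Fasn, the fatty acid synthase, 0.0228% for Sparc and 0.0229% for Ahnak. Since a row needs 240 antisense reads to be kept, ratios this low could be found only in genes with very many exon reads. Over the 50 largest exon rows, kept or not, the antisense sum was 0.0351% of the exon sum at the median and 0.00126% at the lowest.

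The annotation (GENCODE M21 on GRCm38) placed 5939 of the 7280 rows by their symbol and 576 by an older symbol. In 2937 rows an exon of a gene on the other strand overlapped an exon of the row's own gene, in 1135 the gene bodies overlapped but no exons did, in 1375 a gene on the other strand lay within 5 kb, and in 1068 there was none of these. In this order the median sums were 1115, 771, 665 and 543 reads, and the median antisense-to-exon ratio was 0.128, 0.0759, 0.0771 and 0.0569. The ratio exceeded 1 in 17.8%, 14.9%, 8.77% and 9.69% of them. Among rows with exon overlap, 1510 pairs met tail to tail, 690 head to head, and in 532 the other gene lay inside the row's gene. The 765 rows without a position held 56.4% of the counts of all 7280 rows, with a median ratio of 0.885. The plot of antisense against exon sums shows these classes and the rows far above or below equality.

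**Figure D1:**
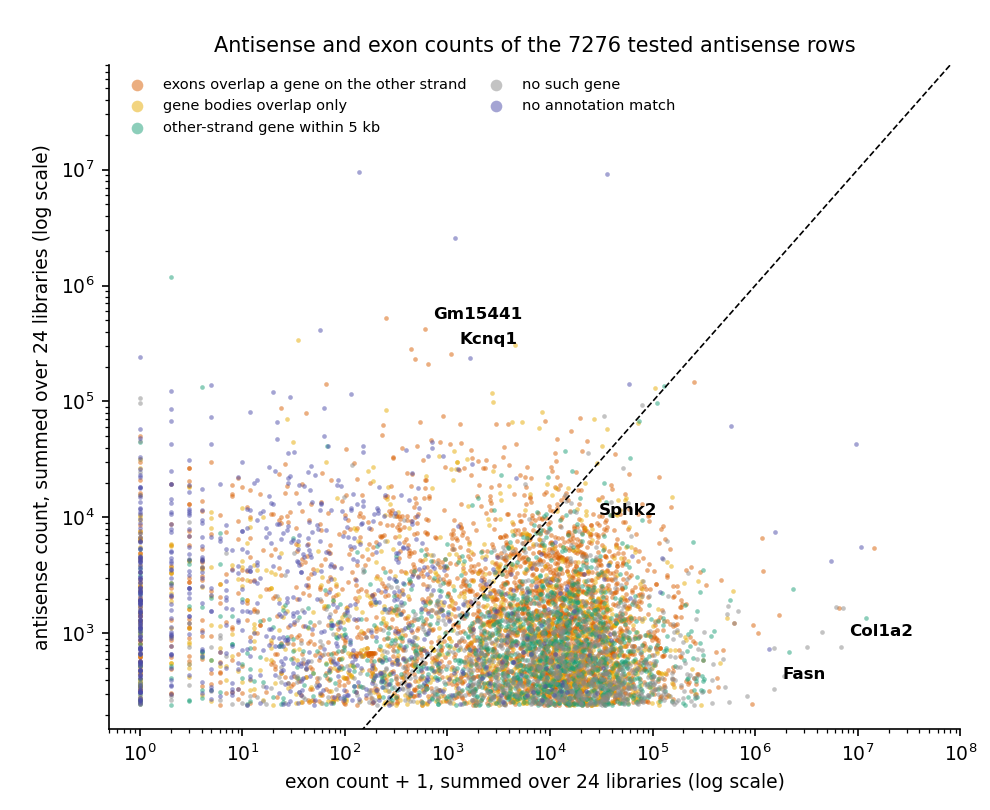
Summed antisense count (vertical) against summed exon count plus 1 (horizontal) over 24 libraries, both on log axes, with 1 point for each of the 7276 antisense rows that passed the low-count filter, coloured by the kind of gene on the other strand, and a dashed line for equal sums. Gm15441 and Kcnq1 stand far above the line, and Col1a2 and Fasn far below it.

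A daily rhythm was tested in each group with a 24 h curve, together with all exon, intron and antisense rows that passed a filter on low counts. Of the 7280 rows, 7276 passed it. Amplitudes are given in log2 units from mean to peak, peak times in ZT, both ± standard error, and adjusted p-values come from edgeR's quasi-likelihood test over all 38775 rows. In ED 38 of the 7276 antisense rows were called, where 1.7% of all rows tested were called. In MD it was 27 rows, with 0.663% of all rows, and in EN 33 rows, with 0.668%. Of the antisense rows, 906, 890 and 604 had an unadjusted p under 0.05. Median amplitudes of the called rows were 0.68, 0.75 and 1.03. Without the ED pool of ZT24 and the EN pool of ZT0, which carry hair shaft RNA, 13 rows were called in ED, all of them among the 38. Without the second day (ZT24 and ZT28) 5 rows were called in ED and 13 in EN.

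In all, 89 antisense rows were called in at least 1 group, 81 of them in a single group, and Sphk2 in all 3. Those called in both ED and EN were AK008482, C730002L08Rik, C920021L13Rik, Erc2, Peg3as, Sphk2 and Tnfsf4, and those called in both MD and EN were Sphk2 and Uts2. In ED 21 of 38 peaks fell between ZT18 and ZT24, in MD 16 of 27 between ZT12 and ZT18, and in EN 14 of 33 between ZT6 and ZT12.  A call in a single group does not show a difference from the others, which was tested on its own: 19 rows differed in rhythm between MD and ED (0.351% of all rows). A further test gave 13 rows for EN against ED (0.315%), and for EN against MD it gave 8 (0.224%). Without the second day the first 2 of these counts were 2 and 3.

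Sphk2 antisense had the smallest p of all antisense rows in every group. Sphk2 encodes a sphingosine kinase and lies at chr7:45709467-45718002 on the minus strand. Its end overlaps the end of Dbp, at chr7:45705088-45710203 on the plus strand, by 737 bases, 539 of them exonic in both. The start of Sphk2 overlaps that of Rpl18, with 159625 exon reads, by 2546 bases, 373 of them exonic in both. The part of each neighbour in the antisense row was not tested. In ED Sphk2 antisense was lowest at ZT0 (4.65 CPM), had a median of 7.15 and was highest at ZT12 (47.4). In MD it was lowest at ZT16 (2.53), had a median of 22.7 and was highest at ZT28 (48.9). In EN it was lowest at ZT24 (2.46), had a median of 13.7 and was highest at ZT8 (78.3). The groups overlapped in level and differed in time of day. The amplitude was 1.62 ± 0.20 with a peak at 12.1 ± 0.48 in ED (adjusted p = 1.73e-06), 2.01 ± 0.20 at 3.87 ± 0.39 in MD (adjusted p = 5.77e-07), and 2.52 ± 0.21 at 8.85 ± 0.29 in EN (adjusted p = 4.92e-09). All pairs of groups differed in this rhythm, with adjusted p = 1.59e-08 for MD against ED, 0.000496 for EN against ED and 8.79e-07 for EN against MD.

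The exon row of Dbp, which encodes a D-box activator driven directly by the clock, peaked at 12.4 in ED, 4.11 in MD and 9.03 in EN, close to Sphk2 antisense in each group, and its amplitudes were 1.75, 1.97 and 2.60. The Sphk2 exon row was not called and stayed between 46.3 and 74 CPM. Sphk2 antisense summed to 8588 reads, 53.9% of the 15948 exon reads of Dbp. The row in the other direction behaved differently: Dbp antisense, which faces the end of Sphk2, was not called in any group (adjusted p = 0.432 for ED, 0.471 for MD and 0.992 for EN), and its levels were 3.8 to 8.44 CPM.

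**Figure D2:**
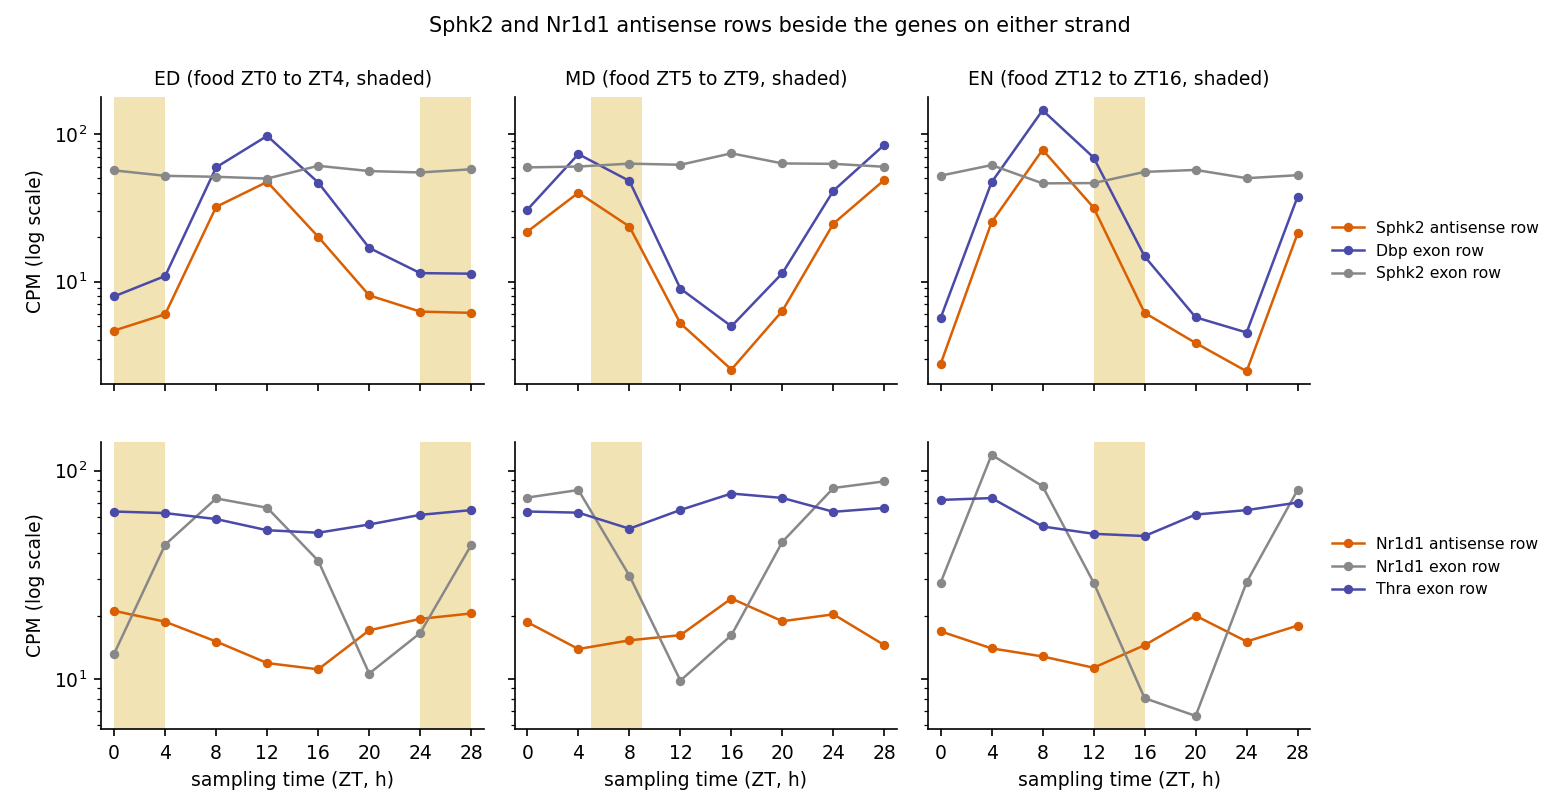
CPM on a log axis against sampling time (ZT in hours), with 1 point per library, a column of panels for each group and food hours shaded. In the upper panels Sphk2 antisense runs parallel to the Dbp exon row in every group while the Sphk2 exon row stays between 46.3 and 74 CPM; in the lower panels Nr1d1 antisense stays between 11.1 and 24.3 CPM while the Nr1d1 exon row runs from 6.63 to 119 CPM.

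C920021L13Rik, at chr3:95871522-95889093 on the plus strand, holds the whole of Ciart (listed as Gm129), a repressor of CLOCK and BMAL1 whose promoter is printed above. Its antisense row ranged from 7.5 CPM at ZT4 to 22.7 at ZT12 in ED with a median of 10.1, from 6.52 at ZT20 to 20.5 at ZT4 in MD with a median of 11.4, and from 5.58 at ZT24 to 22.2 at ZT8 in EN with a median of 9.18. The peak was at 13.6 in ED (adjusted p = 0.0413) and 10.5 in EN (adjusted p = 0.00521), against 12.4 and 9.17 for the Ciart exon row. BC028528, which also faces this row, peaked at 14 in EN. The MD rhythm was not called (adjusted p = 0.153).

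Uts2, which encodes the peptide urotensin 2, had no exon read and 567 antisense reads. It lies inside Camta1, which is on the other strand, and ends 1842 bases from the end of Per3. Its antisense row was highest at ZT4 in MD (3.24 CPM, median 1.89, lowest 0.779) and at ZT8 in EN (2.13 CPM, median 0.982, lowest 0.134). It peaked at 6.68 in MD (adjusted p = 0.0341) and 10.1 in EN (adjusted p = 0.00171), and the Per3 exon row at 5.65 and 10.5. Per3 is one of the period genes that D-boxes drive.

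D930015M05Rik lies inside Cry2, a cryptochrome that represses CLOCK and BMAL1, and overlaps it by 23417 bases. With 30089 antisense reads and 4 exon reads it was among the larger rows. It ran from 41.5 CPM at ZT24 to 84.9 at ZT12 in EN (median 61.6), where the Cry2 exon row ran from 30.1 to 63.1 at the same times. The EN peaks were at 11.1 (adjusted p = 0.0082) and 11.7. In ED the row was not called (adjusted p = 0.0563).

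Nr1d1 encodes REV-ERB alpha and lies at chr11:98767932-98775333 on the minus strand, tail to tail with Thra, a thyroid hormone receptor, with 263 shared exonic bases. In ED its antisense row fell from 21.2 CPM at ZT0 to 11.1 at ZT16, with a median of 17.9, and its levels at ZT20 to ZT28 were 17.1 to 20.6. The ED amplitude was 0.45 ± 0.08 with a peak at 1.59 ± 0.70 (adjusted p = 0.0176), while the Nr1d1 exon row peaked at 9.38. The Thra exon row peaked at 2.81 and was not called (adjusted p = 0.126). The antisense row was not called in MD (peak 18.4, adjusted p = 0.127) or EN (22.3, adjusted p = 0.286), and its rhythm differed between MD and ED (adjusted p = 0.0213). The ED call was lost when antisense rows were scaled by their own total (adjusted p = 0.0533), without the second day (0.0694) and in the deposited RPKM values (0.0931). Thra antisense, with 383 reads, was not called in any group (adjusted p = 0.884, 0.838 and 0.883).

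In all, 9 antisense rows lay across from or within 5 kb of 9 clock genes. Besides those above these were Thra (across from Nr1d1), 0610040F04Rik (Bhlhe40), Tmem165 (Clock), Slc16a3 (Csnk1d) and Btbd10 (Arntl), and none of these 5 was called in any group. Btbd10 antisense, 1500 bases from the end of Arntl, differed in rhythm between MD and ED (adjusted p = 0.0388).

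Of 23 core clock genes listed, 11 had an antisense row among the 7280: Nr1d1, Dbp, Rora, Clock, Usp2, Arntl, Gm129, Tef, Bhlhe41, Csnk1d and Npas2. Nr1d1 was called in ED, none in MD and Tef in EN, so 1, 0 and 1 of 11, where 1.7%, 0.663% and 0.668% of all rows were called; so few rows cannot show a difference from those shares. Tef, a D-box activator like DBP, had 555 antisense reads and 56397 exon reads. Its antisense row was lowest in EN at ZT20 (0.265 CPM), had a median of 0.983 and was highest at ZT8 (2.13), with an amplitude of 1.2 ± 0.19 and a peak at 9.24 (adjusted p = 0.016). The Tef exon row was also highest in EN at ZT8 (257 CPM) and was lowest at ZT24 (39 CPM). Gm17597, without a row here, overlaps Tef by 193 bases on the other strand. Whether the antisense row holds stray sense reads of Tef was not tested.

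Other rhythmic antisense rows also followed a gene on the other strand. Of the 38 called in ED, 16 overlapped a gene whose exon row was tested, and in 5 of these that exon row was called too, with a median distance of 0.425 h between the peaks and a largest of 1.34 h. In MD it was 4 of 10 (0.124 h, largest 0.236 h) and in EN 10 of 12 (0.613 h over 11 pairs, largest 3.46 h). The row's own sense exon row was called in 1 of 22 in ED, 0 of 19 in MD and 2 of 21 in EN. Of all exon rows tested, 1.05%, 0.804% and 0.91% were called in ED, MD and EN. Read from the other side, 22 antisense rows lay across from an exon row called in ED and 5 were called themselves, 4 of 18 in MD and 10 of 21 in EN. These counts share libraries and describe which rows moved together, as the plot of paired peak times shows. Overlapping rows can also hold the same reads, so near peak times in a pair are not separate evidence.

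**Figure D3:**
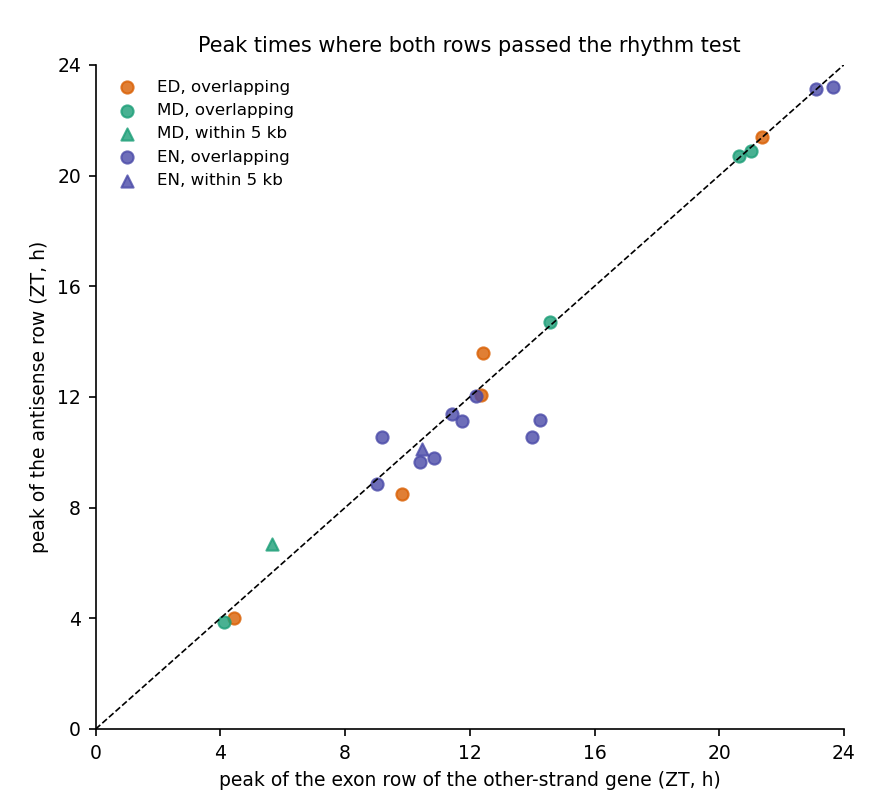
Peak time of the antisense row (vertical, ZT in hours) against that of the exon row of the gene on the other strand (horizontal, ZT in hours), for pairs in which both were called, coloured by group, with circles for overlapping genes, triangles for genes within 5 kb, and a dashed line for equal times. Most points lie near the line, and the EN pairs of C920021L13Rik with BC028528 and of C730002L08Rik with Aldh1a1 lie furthest below it.

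The pairs came from several functions. In ED 4930471I20Rik antisense peaked at 8.47 and the exon row of Acss2, the cytosolic acetyl-CoA synthetase, at 9.81. Exosc9 antisense peaked at 21.4 beside Ccna2 (21.4), the cyclin of S phase and mitosis. In MD D830015G02Rik antisense peaked at 14.7 across from Myh7, the slow muscle myosin heavy chain (14.6), with a mean in MD that was lower than in ED (-3.17). Also in MD, Cdc73 antisense peaked at 20.9 across from B3galt2 (21.0). In EN Mtor antisense peaked at 11.4 across from Angptl7 (11.4), Chid1 at 12.0 across from Tspan4 (12.2), Fbxo22 at 9.78 across from Nrg4 (10.9), Has2as at 23.2 across from Has2 (23.6), the hyaluronan synthase, and C730002L08Rik at 11.2 across from Aldh1a1 (14.3). The last pair was the one of these furthest apart in time.

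Some rhythmic antisense rows had no annotated gene across from them. Srgap1 antisense (729 reads) was highest in ED at ZT16 (4.01 CPM, median 1.47) and lowest at ZT28 (0.694), with an amplitude of 1.26 ± 0.17 and a peak at 18.8 ± 0.48 (adjusted p = 0.00146). Tnfsf4 and Tnfsf18, which encode the ligands OX40L and GITRL and are neighbours on the chromosome, both had strong antisense rows. Tnfsf4 antisense ranged from 1.93 CPM at ZT12 to 16.3 at ZT20 in ED with a median of 8.65, and from 3.84 at ZT12 to 14.7 at ZT24 in EN with a median of 9.08, with peaks at 22.5 (adjusted p = 0.00591) and 21.9 (adjusted p = 0.0155). Tnfsf18 antisense peaked at 23 in ED (adjusted p = 0.0111). In all, 8 of the 38 rows called in ED, 4 of 27 in MD and 5 of 33 in EN had no gene on the other strand within 5 kb, as had 14.7% of the 7280 rows.

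Erc2 antisense was rhythmic in ED and EN but at different times. Erc2 encodes a protein of the presynaptic active zone. The annotated antisense gene Gm45645, without a row here, lies inside Erc2 and overlaps it by 38053 bases, 106 of them exonic in both. In ED its antisense row was highest at ZT8 (8.37 CPM, median 3.51) and lowest at ZT16 (0.691), and in EN highest at ZT20 (8.57 CPM, median 3.85) and lowest at ZT8 (1.26). The peaks were at 6.35 ± 0.66 (adjusted p = 0.00732) and 21.5 ± 0.62 (adjusted p = 0.00173), and the rhythms differed (adjusted p = 0.0002). Both peaks came some hours after food was offered. In MD, with 0.974 to 3.39 CPM, the row was not called (adjusted p = 0.249).

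The response to food was tested over all groups by comparing libraries 3 to 8 h after food was offered (fed, n = 7) with libraries 19 to 24 h after it (fast, n = 9), at the same time of day and group in the model. Changes are log2 fed over fast from the edgeR fit. The ± is the standard error of a separate least-squares fit of the same model to log2 CPM. Of the 7276 rows, 180 were called, where 4.36% of all rows were: 50 were higher when fed (1.62% of all rows were called higher) and 130 were lower (2.74%). Of these, 47 and 116 had the same sign of fed minus fast in all 3 groups when the means were taken without the model. The median change of all 7276 rows was -0.03, that of intron rows -0.03 and that of exon rows 0.003.

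The food response gave 70 called rows that overlapped a tested exon row of another gene. In 32 of them that gene was called as well, and all 32 pairs had the same direction, as the plot of paired changes shows. The rows of an overlapping pair can hold the same reads, so their shared direction is not separate evidence. The row's own exon row was called in 8 of 126. Of all exon rows, 4.35% were called for food. From the other side, 105 antisense rows lay across from a gene called for food and 32 were called themselves.

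**Figure D4:**
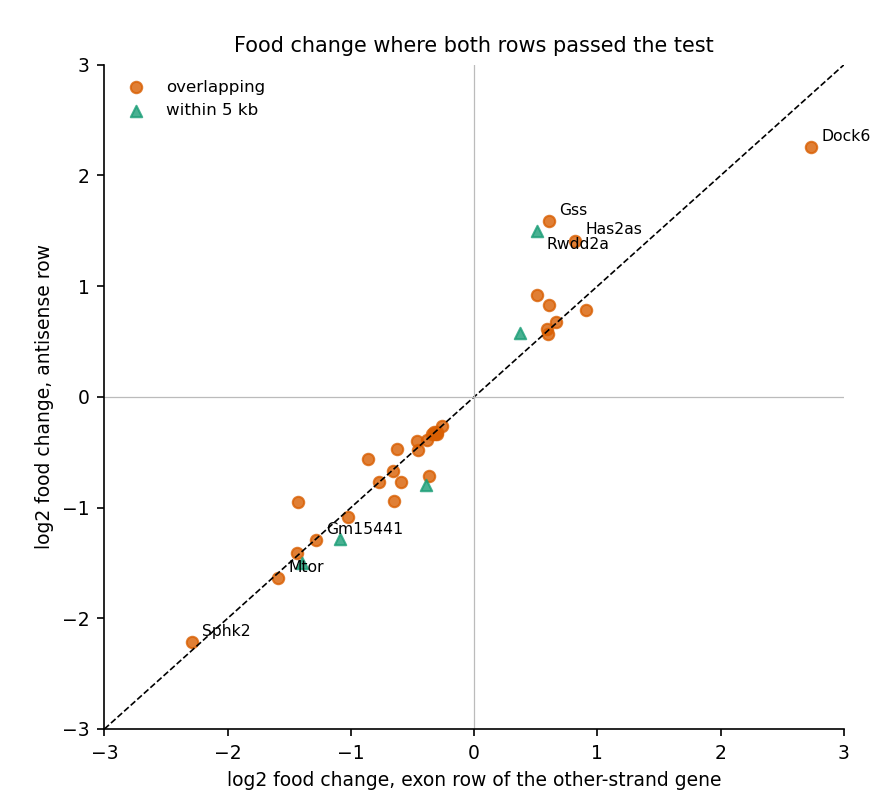
Log2 change fed over fast of each called antisense row (vertical axis) against that of the exon row it overlaps (horizontal axis), for the pairs in which both were called. Circles are the 32 rows with an overlapping gene and triangles 5 rows with a gene within 5 kb; the dashed line marks equal changes. All lie in the lower left or upper right quadrant, from Sphk2 with Dbp at -2.22 and -2.29 to Dock6 with Angptl8 at 2.25 and 2.74.

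Gss antisense is across from Acss2, with 22544 bases shared. The annotated antisense genes Gssos2 and Gssos1, without a row here, also overlap Gss, by 1680 and 492 bases. Gss encodes glutathione synthetase. It was 24.2 to 77.5 CPM in fed libraries with a mean of 46 ± 16 (SD, n = 7), and 9.51 to 22.5 CPM in fast libraries with a mean of 16.5 ± 3.97 (SD, n = 9). The classes did not overlap. The change was 1.59 ± 0.23 (adjusted p = 3.53e-05), against 0.61 for the Acss2 exon row, and the Gss exon row was level (9.37 ± 1.64 fed, n = 7, and 9.01 ± 1.22 fast, n = 9, SD). 4930471I20Rik, also across from Acss2, rose by 0.83.

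Dock6 antisense spans Angptl8 (listed as Gm6484), a hormone of fat and liver that is known to rise with feeding. It ranged from 4.11 to 23.6 CPM in fed libraries and from 0.876 to 13.2 in fast ones, and its change was 2.25 ± 0.49 (adjusted p = 0.00314), with 2.74 for Angptl8. The highest fast libraries were those of ED at ZT24 and ZT0 (13.2 and 12.2 CPM). Has2as rose by 1.41 ± 0.21 (adjusted p = 0.000215) with Has2 (0.82), Dopey1 by 0.92 ± 0.16 (adjusted p = 0.000377) with Pgm3 (0.51), an enzyme of hexosamine synthesis, and Rwdd2a by 1.5 ± 0.27 (adjusted p = 0.000608) near the same Pgm3. Egfl7 antisense rose by 0.79 with Agpat2 (0.91), an enzyme of triglyceride synthesis. Erc2 rose by 1.90 ± 0.33 (adjusted p = 0.00029) and Trpc1 by 1.72, and no tested gene across from either was called. Gm45645, inside Erc2, has no row here and could not be tested. The plain difference of Trpc1 was -0.12 in ED, 1.08 in MD and 3.82 in EN.

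Among the antisense rows that fell with food, Gm15441, across from Txnip, was 418 to 873 CPM in fed libraries and 837 to 1910 in fast ones, and changed by -1.29 ± 0.19 (adjusted p = 6.16e-05), the same as the Txnip exon row (-1.29). The classes overlapped between 837 and 873 CPM. The Gm15441 exon row was at 0.719 to 3.9 CPM. Rassf4 antisense fell by 1.41 ± 0.24 (adjusted p = 0.000158) with Depp1 (listed as 8430408G22Rik, -1.44), a target of FOXO factors. 2310008H04Rik (-1.09) moved with Cebpd (-1.02), 4732471J01Rik (-0.77) with Lipe (-0.77), the hormone-sensitive lipase, 9530052E02Rik (-0.56) with Irs2 (-0.86), an adaptor of the insulin receptor, and Dnajb13 (-0.71) with Ucp2 (-0.37). Mtor antisense fell by 1.64 ± 0.45 (adjusted p = 0.00612) with Angptl7 (-1.59). Its sign differed between groups: the plain difference of fed minus fast was -1.89 in ED, 0.12 in MD and -1.78 in EN.

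The largest falls were those of Rhbdd2 and Sphk2. Rhbdd2 antisense was 0.455 to 5.63 CPM in fed and 1.73 to 9.43 in fast libraries, with a change of -2.23 ± 0.32 (adjusted p = 9.21e-05). Gm15607 and Gm21839, without a row here, lie inside Rhbdd2 on the other strand, with 358 and 378 shared exonic bases. Sphk2 antisense changed by -2.22 ± 0.59 (adjusted p = 0.00675), with -2.29 for Dbp. Its plain difference was 0.78 in ED, -1.53 in MD and -3.36 in EN, so the sign in ED was opposite to that of the fitted value. Med16 antisense, 2053 bases from Cfd (adipsin, made by fat cells), changed by -1.84 ± 0.23 (adjusted p = 5.55e-05), from 5.81 ± 2.47 CPM (SD, n = 9) fast to 1.84 ± 1.18 CPM (SD, n = 7) fed. The Cfd exon row was near level, at 684 ± 294 CPM fast and 694 ± 219 fed. Gm24019 and Gm26602, without a row here, lie nearer to Med16 on the other strand, at 272 and 1933 bases. AK146407 (-1.95), Susd2 (-1.60) and Fmo1 (-1.56) also fell in the fit. The plain difference of AK146407 was -1.32 in ED, 0.17 in MD and -2.22 in EN, while those of Susd2 and Fmo1 were below 0 in all 3 groups. Susd2 and Fmo1 have no gene on the other strand within 5 kb.

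**Figure D5:**
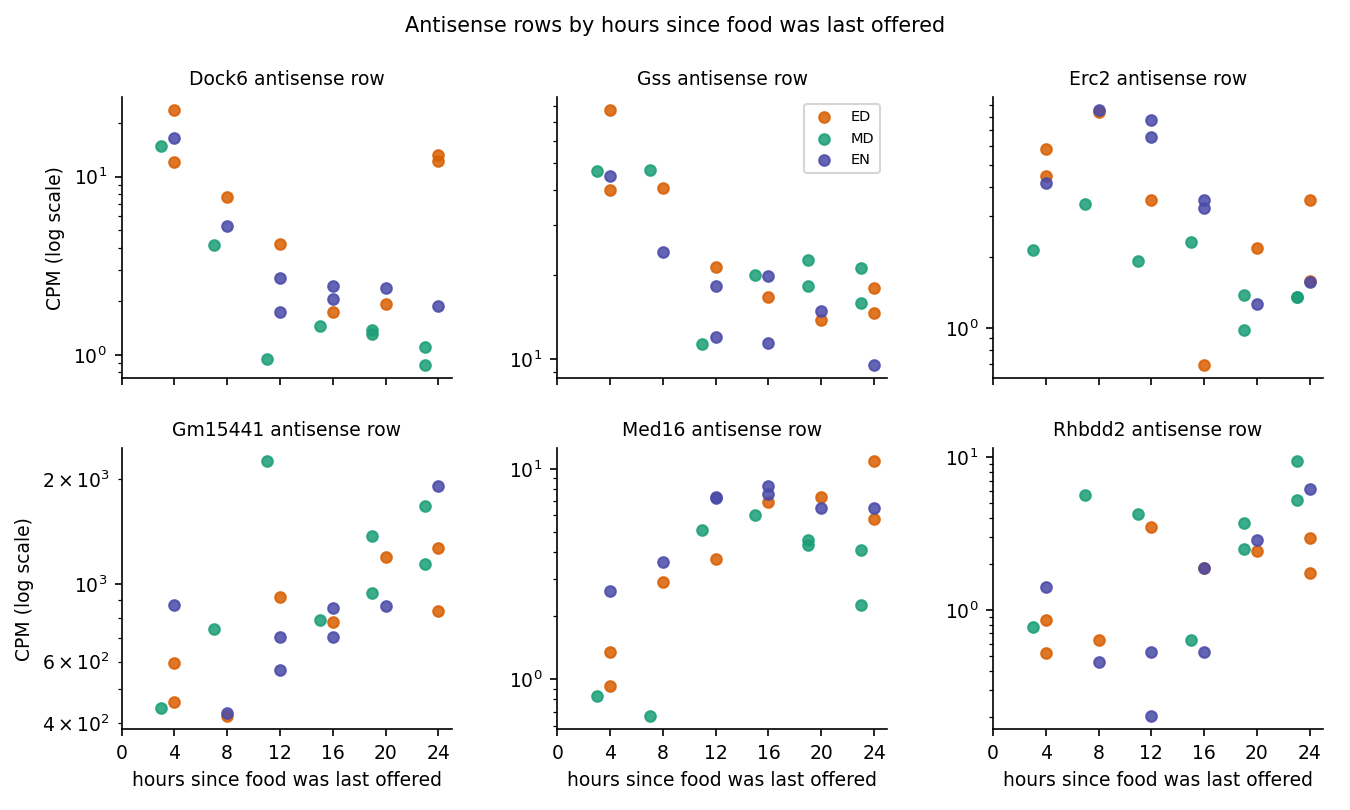
CPM (log axis) of the antisense rows of Dock6, Gss, Erc2, Gm15441, Med16 and Rhbdd2 against hours since food was last offered, with 1 point per library coloured by group. Gss antisense was 24.2 to 77.5 CPM at 3 to 8 h and 9.51 to 22.5 CPM at 19 to 24 h, without overlap, and Gm15441 ran the opposite way.

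C920021L13Rik changed by -0.95 ± 0.16 (adjusted p = 0.000544), with Ciart at -1.43, and D930015M05Rik by -0.48 (adjusted p = 0.00122), with Cry2 at -0.46. The plain difference of C920021L13Rik was -0.13 in ED, -0.37 in MD and -1.13 in EN. That of the Ciart exon row was 0.19, -0.36 and -2.36, so its sign in ED was opposite to that of the fitted value. Of the 11 antisense rows of clock genes, Tef fell by 1.14 ± 0.18 (adjusted p = 0.00461) and Usp2, which encodes a deubiquitinase with a clock-driven rhythm, rose by 0.58 (adjusted p = 0.0408). The exon row of Rnf26, 4 bases from Usp2 on the other strand, was called as well and rose by 0.37. Gm49380 and Gm39325, without a row here, overlap Usp2 by 28607 and 4448 bases. The plain difference of Tef was -0.04 in ED, -0.45 in MD and -1.90 in EN. The median change of the 11 was -0.01.

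Mean level over the day differed between groups for many antisense rows. Between MD and ED 1599 of the 7276 rows were called, where 20.8% of all rows were: 1444 were higher in MD (14.9% of all rows) and 155 lower (5.84%). Between EN and MD 2284 rows were called (33.6% of all rows), 210 higher in EN (7.94%) and 2074 lower (25.7%). Between EN and ED none was called, as for all rows (0.0%). There 381 rows had an unadjusted p under 0.05, DESeq2 and limma on RPKM also called 0, and edgeR without the low-count filter called 1. The median change of the antisense rows was 0.23 for MD minus ED and -0.27 for EN minus MD. Intron rows moved the same way, with medians of 0.12 and -0.21, while those of exon rows were -0.003 and -0.01.

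These directions depend on the scale. With antisense rows scaled by their own totals, 490 rows were higher and 507 lower in MD than in ED, with a median of 0.01, and 653 were higher and 612 lower in EN than in MD, with a median of -0.02. With all rows scaled together the counts were 1057 and 209, and 333 and 1145. With the deposited RPKM they were 768 and 334, and 391 and 600. Fast muscle markers were higher in MD (above) and summed dermal fibroblast markers lower, with a median of 43520 CPM against 65610 in ED and 69860 in EN. Of the 8 codes in the library labels, which took 3 libraries each, 6 held libraries of 1 group only, so the code and the group cannot be told apart for most libraries. The part of these in the differences was not tested.

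Rows were named here by the smallest p for a difference in mean, so shifts beyond the median come with that choice. The changes are those of the edgeR fit, and the ± is again the standard error of a least-squares fit to log2 CPM. Fancc antisense (a gene of the Fanconi anaemia repair pathway) was 24.2 to 36.2 CPM in ED (median 31.3), 38.6 to 60.1 in MD (median 46.5) and 27.0 to 33.2 in EN (median 31.6). MD lay apart from both other groups, with a change of 0.68 ± 0.06 from ED to MD (adjusted p = 2.26e-06) and -0.65 from MD to EN (adjusted p = 2.63e-06). On the other strand 2010111I01Rik overlaps Fancc by 41054 bases, and Gm16133, without a row here, by 10406. 2700086A05Rik (Hoxaas3 in the annotation) is an RNA of the HoxA cluster, with 44 exon reads. Hoxa3, Hoxa4, Hoxa5, Hoxa6 and Hoxa7 overlap it on the other strand. Its antisense row was 6.88 to 21.4 CPM in ED (median 12.2), 22.5 to 56.5 in MD (median 34.8) and 11.3 to 20.3 in EN (median 14.1). MD again lay apart from both other groups, with changes of 1.52 ± 0.18 (adjusted p = 3.88e-06) and -1.23 (adjusted p = 1.7e-05). HoxA genes are known to mark the position of a cell along the body. Kdelr3 antisense was 1.18 higher in MD than ED, and Gmpr 0.91. BC116202 antisense (the larger model) went the other way, with a change of -0.72 from ED to MD (adjusted p = 0.00219).

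The share of antisense in exon plus antisense counts was 10.3% ± 0.508 for ED, 9.78% ± 1.04 for MD and 10.5% ± 0.509 for EN (SD, n = 8 libraries each). No pair of groups differed in an exact two-sided permutation test that swapped the groups within each time (smallest possible p = 0.00781): the differences were -0.507 percentage points for MD minus ED (adjusted p = 0.32), 0.183 for EN minus ED (adjusted p = 0.32) and 0.691 for EN minus MD (adjusted p = 0.211). Without the 20 largest antisense rows every difference turned round, to 0.524 (adjusted p = 0.0234), -0.199 (adjusted p = 0.156) and -0.723 (adjusted p = 0.0234), the last lower in EN at all 8 times.

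The ratio of antisense to exon counts was tested on its own scale for 5822 of the rows, beside intron rows. In ED 101 rows had a rhythmic ratio (4.21% of all ratios tested), in MD 19 (0.243%) and in EN 29 (0.282%). The ratio can move through either row. For Sphk2 it was the antisense row: the ratio had amplitudes of 1.68, 2.13 and 2.63, with adjusted p = 2.13e-07 in ED, 1.44e-09 in MD and 2.45e-11 in EN. For Dbp and Nr1d1 it was mainly the exon row, since their antisense rows moved little. The Dbp ratio peaked at 0.441 in ED, 16.2 in MD and 21.0 in EN (adjusted p = 5.74e-08, 1.79e-09 and 6.59e-11), and the Nr1d1 ratio at 22.3, 14.2 and 18.4 (adjusted p = 7.74e-08, 2.72e-08 and 6.59e-11).

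With food 105 ratios changed (1.16% of all ratios), 39 higher when fed (0.366%) and 66 lower (0.797%). They were led by Med16 (-1.98, adjusted p = 1.04e-06), Gss (1.52, adjusted p = 1.22e-06) and Rhbdd2 (-2.25, adjusted p = 1.26e-05), whose exon rows were near level between fed and fast.

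Imprinted loci gave 13 antisense rows from 24 genes listed, with a median antisense-to-exon ratio of 0.893. The 13 rows are not independent: 3 are overlapping models of Gnas, and pairs such as Kcnq1 with Kcnq1ot1 and Igf2r with Airn are opposite strands of 1 locus. Kcnq1 is crossed on the other strand by Kcnq1ot1, the long RNA that silences this imprinted cluster. Kcnq1 had 256339 antisense reads and Kcnq1ot1 255624 exon reads. Kcnq1 antisense was 461 to 700 CPM in ED (median 587), 561 to 763 in MD (median 621) and 482 to 614 in EN (median 538), and the Kcnq1ot1 exon row had medians of 587, 619 and 536. The groups overlapped. None of the 13 was called for rhythm in any group (1.7%, 0.663% and 0.668% of all rows were) or for food (4.36%), and at these shares a count of 0 in 13 is not a result about imprinted loci. In mean level 1 of the 13 was called between MD and ED (20.8% of all rows) and 3 between EN and MD (33.6%). Rtl1 antisense was lower in MD than in ED (-0.84, adjusted p = 0.000416) and higher in EN than in MD (0.89), while Nap1l5 (-0.92) and Kcnq1 (-0.25) were lower in EN than in MD, Kcnq1 by about the median of all antisense rows (-0.27). Igf2r, a receptor that clears IGF2 and is silenced by the antisense RNA Airn on the paternal copy, had 64842 antisense reads against 72605 exon reads.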

How the data were processed

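Whole back skin RNA was made into stranded total RNA libraries. Per the submitters' processing notes, the tools include TopHat2, SAMtools and HOMER and the build mm10. The counting program and its settings are not given. Some antisense rows held reads outside the exons of their own gene. A630023A22Rik had 527682 antisense reads, and Anxa8, with 0 shared exonic bases, had 452448 exon and 73036 intron reads. Mtor had 11623 antisense reads, and Angptl7, also with 0 shared exonic bases, had 10494 and 908. The deposited table holds raw counts per gene model for exon, intron and antisense rows. The authors also deposited RPKM values, named as made by cqn (conditional quantile normalisation), used here as an alternative. Rows passing filterByExpr (edgeR 4.0.16, minimum count 10, minimum total 15; R 4.3.3) were fitted together, 16036 exon, 14923 intron and 7816 antisense, with exon library sizes and TMM factors. Rhythm used a 24 h cosinor in each group (15 residual degrees of freedom), and food used group, time of day and hours since food (14). Ratios used limma 3.58.1 on log2 counts plus 0.5. Benjamini-Hochberg adjustment ran over all rows, with a threshold of 0.05. Scripts were tested on simulated data. Alternatives used DESeq2 1.42.0, 2 other scalings, no filter, fewer libraries and sampling time as a block. The named rows were those of largest sum, extreme ratio or smallest p in each test, the largest food changes, and the clock and imprinted lists, each with its neighbour; pairs named beyond these were chosen after their values were seen. The rows, lists and tests were chosen with earlier results of these data known. Gene positions are those of GENCODE M21. Library numbers follow deposit order, and the same number is the same sampling time in every group; that time served as the block.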

Additional observations from a re-analysis of the deposited data

Results flagged for a closer look

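The following antisense rows differed in daily rhythm between groups by the test of the difference itself (edgeR, adjusted over 38775 rows), listed with the adjusted p. Between MD and ED these were Sphk2 (1.59e-08), Zmym1 (0.00217), Ulk4 (0.00306), AK008482 (0.00722), Ppp1r13b (0.0088) and Lelp1 (0.0095). Zmym1 antisense peaked at ZT14 in MD (amplitude 0.93 ± 0.17), where it was highest at ZT16 with 15.2 CPM, and ran from 5.11 to 14.1 CPM in ED. Ulk4 antisense peaked at 14.5 in MD, and Ppp1r13b at 2.30 in ED. Lelp1 has no gene across from it and peaked at 13.9 in MD. Without the second day the calls of Zmym1 (0.0797), Ulk4 (0.150), AK008482 (0.119) and Ppp1r13b (0.0516) were lost.

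Between EN and ED the rows were Erc2 (0.0002), Sphk2 (0.000496), Fbxo22 (0.00243), Sap30bp (0.00843), AK008482 (0.00916) and Srgap1 (0.00922). AK008482 antisense peaked at 18.6 in ED and 14 in EN, with 15.2 to 34.7 CPM and 15.1 to 42.2 CPM. Fbxo22 antisense, across from Nrg4, ran from 14.7 CPM at ZT24 to 43.8 at ZT12 in EN. Sap30bp antisense peaked at 6.47 in EN. Without the second day the calls of Sap30bp (0.0980), AK008482 (0.125) and Srgap1 (0.0514) were lost.

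Between EN and MD the rows were Sphk2 (8.79e-07), Erc2 (0.0079), Lrp3 (0.0079), Fbxo22 (0.00945), Dock2 (0.0149) and Chid1 (0.0193). Lrp3 antisense peaked at 22.7 in MD and 7.54 in EN, Dock2 at 1.06 in EN, and Chid1, across from Tspan4, at 12.0 in EN. Without the second day the calls of Chid1 (0.143) and Dock2 (0.0644) were lost.

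For each of the 108 antisense rows that the naming rule chose, the 8 libraries of a group were searched for 1 highest or lowest library set apart from the rest, measured as its gap to the nearest library over the range of the group in CPM. In 34 of 324 groups this share was above Dixon's 95% critical value, at the highest library in 31 and at the lowest in 3. Chance gives about 1 in 20, the 324 groups share libraries, and each library of a group is a different sampling time. In ED the highest library was that of ZT28 for Gss (0.576), AK080051 (0.589), Tnni3k (0.679), Dopey1 (0.642), Scn3a (0.683), Gm8439 (0.596) and Rwdd2a (0.69), which is 4 h after food was offered. It was ZT12 for C920021L13Rik (0.562) and Sorcs2 (0.539), ZT20 for Cenpp (0.529) and ZT24 for Ube2q2 (0.612). The ED pool of ZT4 was also taken 4 h after food was offered and stood below these ZT28 values. For Gss the next library had 40.8 CPM against 77.5, for Dopey1 57.3 against 105, and for Rwdd2a 6.21 against 15.2.

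In MD the highest library was ZT0 for Gm10790 (0.635), Cenpp (0.63) and Mest (0.679), and ZT16 for AK138921 (0.604) and Trpc1 (0.585). Dock6 was set apart at ZT8 (0.767), 3 h after food was offered, with 14.8 CPM against 4.11 in the next library. Gnas had 3 overlapping models set apart at ZT20 (0.532, 0.528 and 0.528). A930016O22Rik was set apart at the low end at ZT0 (0.539).

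The highest library in EN was that of ZT16, 4 h after food was offered, for Gss (0.584), Dock6 (0.758), Dopey1 (0.797) and Rwdd2a (0.704). At ZT12 it was AK154552 (0.646), AK146407 (0.707), Gm15441 (0.699), Rhbdd2 (0.552) and Rassf4 (0.651) that were set apart at the high end. Gm15441 antisense then had 1910 CPM, with 873 in the next library. Sphk2 was highest at ZT8 (0.615) and AK080051 at ZT4 (0.625), while Mest at ZT0 (0.592) and Usp2 at ZT12 (0.528) were lowest.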

How the results depend on the processing

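Of 102 named results, 78 kept their direction and call under every alternative run, and no called value changed sign. Calls were lost for 22 of 102 without the second day (ZT24 and ZT28), for 9 of 78 on RPKM, 2 of 78 with antisense scaling, 1 of 70 with DESeq2 and 1 of 102 without the pools ED ZT24 and EN ZT0. Counts of called antisense rows moved more. For rhythm in ED (38) they were 70 with no filter, 5 without the second day, 13 without those 2 pools and 146 with DESeq2. For MD (27) they were 62 with no filter, 42 on RPKM and 103 with DESeq2, and for EN (33) 72 with no filter, 13 without the second day and 68 with DESeq2. For the MD against ED rhythm (19) they were 46, 2, 31 and 65 with no filter, without the second day, on RPKM and with DESeq2. For EN against ED (13) they were 53 with no filter, 3 without the second day and 49 with DESeq2, and for EN against MD (8) 36 with no filter and 43 with DESeq2. The mean of MD against ED (1599) gave 997 with antisense scaling, EN against ED gave 1 with no filter, and EN against MD (2284) gave 1265 with antisense scaling, 1478 with all-row scaling and 991 on RPKM. Food (180) gave 379 with no filter. The rhythmic ratio gave 42 in ED without the second day and 39 without the 2 pools (of 101), and 18 in EN without the second day (of 29). The cause of these moves was not tested. The share of antisense counts reversed without the 20 largest rows, to 0.524, -0.199 and -0.723 percentage points for MD minus ED, EN minus ED and EN minus MD; with intron counts in the total it was -0.459, 0.351 (adjusted p = 0.0352) and 0.810 (adjusted p = 0.0352, exact permutation).

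Sampling time as a replicate block gave 40 rhythm calls for EN against ED and 17 for EN against MD, 22 for MD against ED, 1607, 0 and 2250 for the means, and 225 for food. A paired fit within a group was not possible because each time had 1 library. Leaving out each library in turn was not run. At 240 reads a row has 10 per library, so small changes in such rows were not detectable; thresholds of 480 and 120 would keep 5170 and 9738 rows.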
